A study of Rattus norvegicus with 12 samples.

Results

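Interferon-stimulated genes are the genes that cells switch on when interferon reaches them, and 39 of them, named in a list built around Mx1, were followed in the hippocampus of rats exposed to blast. The list was chosen by the level of Mx1, an antiviral GTPase, which was higher in rats fed boldine in these same libraries, so the treatment difference of Mx1 is given here as a description and without a test. Of the 39 members, 36 had a row among the 17494 genes counted. Herc6, Xaf1 and Ifnar2 were not analysed here. A total of 30 members, Mx1 and 29 others, passed the filter on low counts, which left 12325 genes to test. The 6 members with a row that did not pass were Ifit1, Isg20, Oas2, Oasl, Zbp1 and Cxcl10.

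The animals were 12 wild-type male Long Evans rats, all of which received 3 blast exposures at 10 weeks of age and were killed 29 weeks later. The 6 blast-boldine rats ate chow with boldine, an alkaloid of the boldo tree, at 500 mg per kg of chow from week 2 after blast onwards, and the 6 blast-controls ate chow without it. Rats without blast were not part of the sequencing, so every difference below is between treated and untreated animals after the same injury. RNA of 1 hippocampus sample per rat was sequenced as a stranded library of total RNA depleted of ribosomal RNA. GEO's labels give the tissue only as brain, and markers of neurons, astrocytes, oligodendrocytes and microglia were all counted.

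Type I interferon binds the receptor chains IFNAR1 and IFNAR2, and the kinases JAK1 and TYK2 then phosphorylate STAT2. With IRF9 it is part of a complex that binds a DNA motif called the interferon-stimulated response element (ISRE), and the genes behind it code for proteins that block viral entry, sense foreign RNA, degrade RNA, or tag proteins with the ubiquitin-like protein ISG15. In the brain, microglia, endothelial cells and the cells of the meninges and choroid plexus are known to respond strongly, and neurons and astrocytes also respond. A low level of these transcripts is normal in uninfected tissue.

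To show the regulatory sequence next to which the members sit, the 300 bases from 250 before to 50 after the transcription start were taken from the RefSeq promoter table of the rat genome build GRCr8, which is not the build of the counts (mRatBN7.2). A window was found for 30 of the 39 members. The ISRE was searched on both strands as GAAANNGAAA, and the motif of STAT dimers as TTCNNNGAA, which reads the same on both strands. An ISRE match lay in 16 of the 30 windows (53.3%) and in 3.92% of all 33469 windows, and 4 members, Bst2, Ifi27, Ifi44 and Oas1a, had 2 matches. The STAT motif lay in 7 of 30 (23.3%) and in 8.87% of all windows, and among the members it overlapped an ISRE in the window of Bst2 alone. The 5 windows printed next belong to the member the list was built around (Mx1, chr11:50294557-50294856, minus strand), to the 2 members that passed an unadjusted p of 0.05 (Ifitm3, chr1:205541709-205542008, minus strand; Oas1a, chr12:41330216-41330515, plus strand), and to the 2 with the highest fold changes (Ifit3, chr1:241527076-241527375, plus strand; Bst2, chr16:18254918-18255217, minus strand). They read 5′ to 3′ on the strand of the gene, and capitals mark the matches to either motif.
Mx1: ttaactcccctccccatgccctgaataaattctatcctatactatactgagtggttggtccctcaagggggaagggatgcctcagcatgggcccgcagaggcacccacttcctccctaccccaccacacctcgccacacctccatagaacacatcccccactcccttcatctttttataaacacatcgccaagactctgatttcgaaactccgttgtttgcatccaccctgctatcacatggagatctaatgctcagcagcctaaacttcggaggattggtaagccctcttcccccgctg
Ifitm3: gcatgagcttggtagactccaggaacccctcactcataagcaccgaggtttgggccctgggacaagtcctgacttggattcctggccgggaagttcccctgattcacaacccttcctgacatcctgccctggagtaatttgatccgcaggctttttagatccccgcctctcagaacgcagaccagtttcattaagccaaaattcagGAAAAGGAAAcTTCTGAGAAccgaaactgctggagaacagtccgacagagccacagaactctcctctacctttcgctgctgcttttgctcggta
Oas1a: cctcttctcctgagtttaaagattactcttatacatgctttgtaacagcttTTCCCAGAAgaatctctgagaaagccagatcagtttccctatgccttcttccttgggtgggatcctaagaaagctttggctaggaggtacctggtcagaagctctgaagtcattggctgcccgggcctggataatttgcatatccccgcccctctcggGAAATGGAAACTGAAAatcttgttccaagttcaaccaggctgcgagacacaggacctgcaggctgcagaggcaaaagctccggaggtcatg
Ifit3: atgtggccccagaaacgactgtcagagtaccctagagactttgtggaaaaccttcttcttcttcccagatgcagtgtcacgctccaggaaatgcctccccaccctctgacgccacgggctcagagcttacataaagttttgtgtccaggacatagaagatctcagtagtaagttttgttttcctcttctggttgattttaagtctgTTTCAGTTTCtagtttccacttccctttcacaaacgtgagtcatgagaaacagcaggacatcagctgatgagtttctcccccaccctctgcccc
Bst2: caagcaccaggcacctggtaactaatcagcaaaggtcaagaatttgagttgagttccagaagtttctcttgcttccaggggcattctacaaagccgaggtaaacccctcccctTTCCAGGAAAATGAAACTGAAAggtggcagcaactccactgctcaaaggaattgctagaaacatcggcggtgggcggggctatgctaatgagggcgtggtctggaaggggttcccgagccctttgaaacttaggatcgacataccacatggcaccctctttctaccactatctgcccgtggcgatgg

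The Mx1 window held no exact match to either motif. Sequence outside that window and looser forms of the motifs were not searched, so this does not show that Mx1 lacks them. In Ifitm3 a single ISRE match began 44 bases before the start, and the STAT motif followed it after 1 base. In Oas1a the 2 ISRE matches overlapped and began 41 and 35 bases before the start. In Bst2 they overlapped as well, at 131 and 125 bases before it. In Ifit3 the match lay on the opposite strand, 44 bases before the start by its first base. These are letter matches in a fixed window and were not tested for binding.

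Libraries of 11 rats held between 10148474 and 40850106 counts, and that of blast-control rat 6 held 74008. In rat 6, 24 of the 36 members had 0 counts, and 3 counts, taken as the smallest detected value, correspond there to 47.5 CPM (counts scaled to the library total), against 0.0658 to 0.307 CPM in the other 11 rats; such floors cover counting error only. Values per rat are therefore given for 11 rats, and tests both with all 12 and without rat 6. The library names also carried the numbers 1 to 6 in duplicate, as 2 sequencing sheets would give, though no label names a sheet or a batch. Of the 4 ways to divide the rats that keep these numbers rising with the rat number, the one that puts rats 1, 7, 9, 20, 32 and 35 in sheet A and rats 4, 5, 6, 12, 17 and 19 in sheet B accounted for 95.1% of the first principal component, which itself held 66.0% of the variance. The sheets are thus inferred from the names and from these same counts, and sheet is only a name for the 2 sets of rats. What separates the sets was not tested. Each sheet holds 3 rats of either treatment, and differences within the sheets are given for the members shown rat by rat. In bulk RNA, fewer cells of a type and less RNA per cell cannot be told apart.

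Levels differed widely between members. Compared per length, as CPM per kilobase of exon and averaged over 11 rats, the highest was Adar at 55.5, the enzyme that edits adenosine in double-stranded RNA. It was followed by Ifi27, a small mitochondrial and nuclear membrane protein, at 27.0 (39.1 in sheet A, 12.6 in sheet B, where it ranked 6), by the transcription factor Irf3 at 25.7 and by the receptor chain Ifnar1 at 24.2. The RNA-activated kinase Eif2ak2 (14.3), Irf9 (13.9), Stat2 (12.2) and Mx2 (11.3) came next. Mx1 itself stood at 1.03 CPM per kilobase, between Ifit3 at 1.105 and Rsad2 at 1.001 and below Isg15 at 1.4. The lowest were Oasl at 0.099 and Oas2 at 0.082, relatives of the enzymes that make the RNase L activator. Neighbours such as Irf3 and Ifnar1, or Ifit3, Mx1 and Rsad2, overlapped over the rats.

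**Figure D1:**
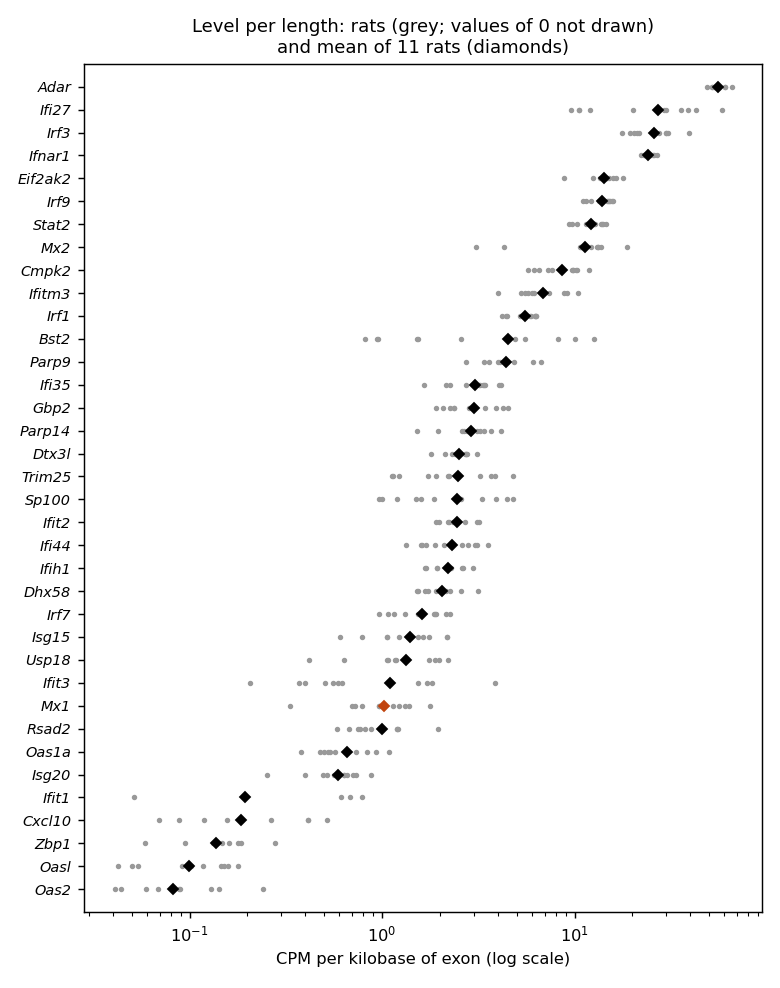
Level of the 36 counted members in CPM per kilobase of exon on a log axis, 1 grey point for each of 11 rats and a diamond for the mean, orange for Mx1. The means run from 0.082 for Oas2 to 55.5 for Adar, and Mx1 lies in the lower part at 1.03.

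Mx1, which lies at chr11:36799659-36825209 on the minus strand of mRatBN7.2, was counted at 3.34 (rat 1), 2.49 (rat 4), 1.15 (rat 5), 2.74 (rat 7) and 2.43 CPM (rat 9) in blast-controls and at 4.77 (rat 12), 3.34 (rat 17), 4.24 (rat 19), 3.93 (rat 20), 6.19 (rat 32) and 4.54 CPM (rat 35) in blast-boldine rats. Of the 6 treated rats 5 were above every control, and rat 17 lay at the level of the highest control, rat 1, so that the groups met at their edges. The means were 4.5 ± 0.965 CPM (SD, n = 6) and 2.43 ± 0.801 CPM (SD, n = 5), and edgeR gave a log2 fold change of 0.87 with an SE of 0.25, without rat 6 also 0.87 with an SE of 0.25. The difference in mean log2 CPM was 0.75 in sheet A and 1.21 in sheet B. Behind the lowest value, that of rat 5, stood 11 counts.

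Mx2 is the other Mx GTPase on the list and the member nearest in kind to Mx1. It lies at chr11:36905903-36929971 on the plus strand and had the lowest fold change of the members. It was counted at 31.1 (rat 1), 35.3 (rat 4), 48.0 (rat 5), 33.9 (rat 7) and 34.0 CPM (rat 9) in blast-controls, and at 28.1 (rat 12), 11.04 (rat 17), 27.8 (rat 19), 7.86 (rat 20), 27.6 (rat 32) and 33.7 CPM (rat 35) in treated rats. The low values of the treated group came from rats 17 and 20, 5 of the 6 treated rats lay below every control, and rat 35 lay among the controls. The log2 fold change was -0.93 with an SE of 0.44 and an unadjusted edgeR p of 0.0555, and -0.68 with an SE of 0.34 and p of 0.0664 without rat 6, which had 13 counts of Mx2 and none of Mx1. An exact two-sided permutation of the rats, applied to mean log2 CPM, gave p = 0.00649 from 924 assignments, 0.039 from 462 without rat 6 and 0.05 from 200 within sheets without rat 6. With 12 rats, the nearly empty library of rat 6 weighs as much as any other, so permutation p with rat 6 rest in part on its depth. For Mx2 the difference in mean log2 CPM was -1.27 with rat 6 and -0.85 without it. The difference in mean log2 CPM was -0.76 in sheet A and -1.001 in sheet B. In every one of 22 settings the fold change of Mx2 was below 0, and its unadjusted p was under 0.05 in 7 of them. The adjusted p was 1.0. Mx1 and Mx2 are close in sequence, and reads that align to both are left out under the default of the counting tool, from which no departure is stated.

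Across the 29 other members tested, the treated rats were higher in 24 and lower in 5, where 51.3% of all 12325 genes were higher. Their median log2 fold change was 0.21, against 0.00456 over all genes, with a range from -0.93 to 0.97. An unadjusted edgeR p under 0.05 was reached by 2 of the 29, Ifitm3 and Oas1a, and by 1.07% of all genes. After Benjamini-Hochberg adjustment over all genes, edgeR called none of the 29 and none of the whole table, and the smallest adjusted p among the 29 was 1.0; DESeq2 also called 0, with 2 of 35 members other than Mx1, Mx2 and Ifitm3, at an unadjusted p under 0.05 (0.542% of all genes). Without rat 6, 23 of 29 were higher (49.7% of all genes), the median was again 0.21 (0.11 without control rat 4), and 2 passed the unadjusted threshold, Ifitm3 and Parp9 (background 1.4%). With no filter on low counts 27 of 35 were higher, with a median of 0.21. No member had all 6 treated rats above all 5 controls, which 0.0718% of all genes had, or below them (0.0639%). For 27 of the 29 the unadjusted edgeR p with 12 rats was above 0.05, which does not show that they were unchanged.

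**Figure D2:**
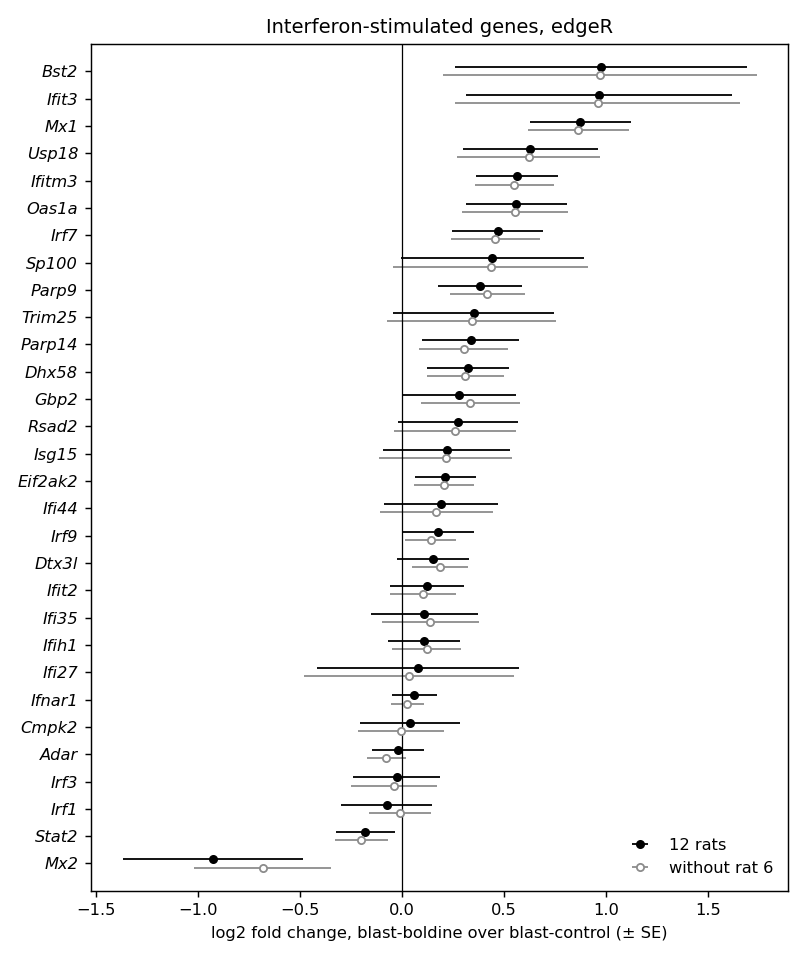
Log2 fold change of blast-boldine over blast-control rats with its SE for Mx1 and the 29 other members tested, from edgeR with 12 rats (filled) and without rat 6 (open). Most points lie right of 0, between -0.93 for Mx2 and 0.97 for Bst2, and most bars cross or come near 0.

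The antiviral effectors, the proteins that act on viruses directly, were higher in 12 of 13 tested, with a median log2 fold change of 0.28, and Mx2 was the exception. Ifitm3, a membrane protein that hinders the fusion of viruses in endosomes and lies at chr1:196111026-196112135, was the only one of the 29 under an unadjusted p of 0.05 in all 22 settings. The settings reuse the same rats, and the share of all genes under that threshold in every setting is not given here. The counts of Ifitm3 came to 3.19 (rat 1), 4.09 (rat 4), 3.46 (rat 5), 3.33 (rat 7) and 2.43 CPM (rat 9) in controls. In treated rats they came to 5.30 (rat 12), 3.65 (rat 17), 6.28 (rat 19), 3.71 (rat 20), 4.47 (rat 32) and 5.54 CPM (rat 35). Of the treated rats 4 exceeded every control, and rats 17 and 20 lay within the control range but above the control median. The log2 fold change was 0.56 with an SE of 0.20 and an unadjusted p of 0.0147, and 0.55 with an SE of 0.19 and again p of 0.0147 without rat 6. By the exact permutation test p was 0.00866, 0.0216 without rat 6 and 0.02 within sheets without rat 6, and the difference was 0.59 in sheet A and 0.39 in sheet B. Rat 6 had 0 counts of Ifitm3, and the difference in mean log2 CPM was 1.33 with that rat and 0.52 without it. The adjusted edgeR p was 1.0.

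Oas1a makes the short adenylate chains that activate RNase L, and lies at chr12:35669835-35680501. It was counted at 0.669 (rat 1), 0.798 (rat 4), 0.734 (rat 5), 0.698 (rat 7) and 0.753 CPM (rat 9) in controls and at 0.530 (rat 12), 1.52 (rat 17), 1.02 (rat 19), 1.18 (rat 20), 1.303 (rat 32) and 0.899 CPM (rat 35) in treated rats. Controls were close together, 5 treated rats lay above all of them, and rat 12 lay below all of them. This gave a log2 fold change of 0.56 with an SE of 0.25 and an unadjusted edgeR p of 0.0419, which became 0.054 without rat 6, and the exact permutation p was 0.0411 and 0.0758 in turn. Its difference in mean log2 CPM was 0.91 with rat 6, which had 0 counts of Oas1a, and 0.44 without that rat. Within the sheets the Oas1a difference was 0.58 in sheet A and 0.27 in sheet B, and its unadjusted p was under 0.05 in 4 of 21 settings.

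The highest fold changes belonged to Bst2 and Ifit3, and both rested on sheet B. Bst2, or tetherin, holds budding viruses at the cell surface. It was counted at 2.03 (rat 1), 4.39 (rat 4), 3.88 (rat 5), 0.751 (rat 7) and 0.753 CPM (rat 9) in controls and at 7.96 (rat 12), 10.03 (rat 17), 6.51 (rat 19), 1.22 (rat 20), 1.21 (rat 32) and 0.649 CPM (rat 35) in treated rats. All rats of sheet B were above all of sheet A in both groups. Its log2 fold change was 0.97 with an SE of 0.72 (unadjusted edgeR p of 0.196), and the difference in mean log2 CPM was -0.09 in sheet A and 0.94 in sheet B, where 3 treated rats stood against 2 controls. Ifit3 binds foreign RNA in a complex with other IFIT proteins. It was counted at 0.803 (rat 1), 1.197 (rat 4), 3.67 (rat 5), 1.02 (rat 7) and 0.753 CPM (rat 9) in controls and at 3.12 (rat 12), 7.80 (rat 17), 3.45 (rat 19), 1.13 (rat 20), 0.419 (rat 32) and 1.25 CPM (rat 35) in treated rats. Its log2 fold change of 0.96 had an SE of 0.65 (unadjusted edgeR p of 0.162), and without treated rat 17 it was 0.38. The difference was 0.00034 in sheet A and 1.02 in sheet B. Both Bst2 and Ifit3 were among the 5 of 29 members whose mean log2 CPM differed by more than 1 between the sheets, as did 2102 of 12529 genes.

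Among the other effectors, Gbp2, a GTPase that attacks the membranes of intracellular pathogens, had a log2 fold change of 0.28 (SE 0.28), with 0.28 in sheet A and 0.39 in sheet B, and all 6 treated rats were above the control median. Rsad2, or viperin, which makes a chain-terminating nucleotide, stood at 0.28 (SE 0.29), but at 0.01 without treated rat 35. Cmpk2, the mitochondrial nucleotide kinase beside it on chromosome 6, had 0.04 (SE 0.25). Ifit2, which also binds RNA, had 0.12, Ifi44 0.19, Ifi35 0.11 and Ifi27 0.08 (SE 0.50). Ifi27 was higher in sheet A than in sheet B by 1.61 on the log2 scale. Sp100, a component of nuclear bodies, had 0.44 (SE 0.45), with -0.25 in sheet A and 0.57 in sheet B. None of these effectors had an unadjusted p under 0.05 in edgeR with 12 rats, and Gbp2 had one without control rat 5.

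**Figure D3:**
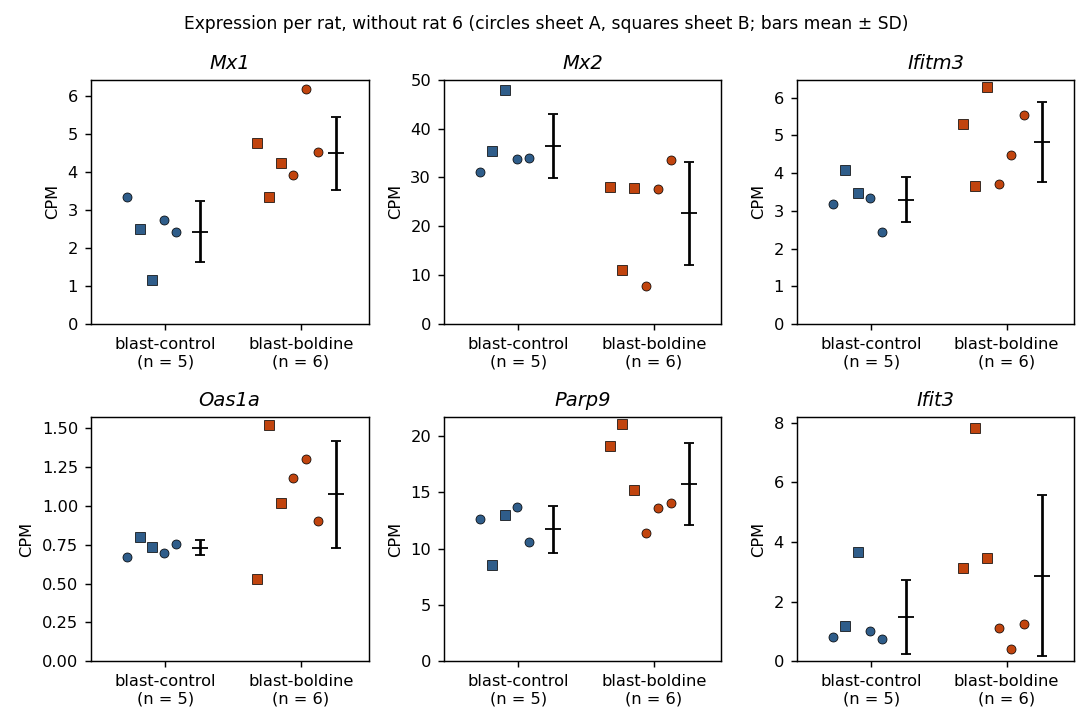
CPM in each of 11 rats for Mx1, Mx2, Ifitm3, Oas1a, Parp9 and Ifit3, blast-control (blue, n = 5) and blast-boldine (orange, n = 6), circles for sheet A and squares for sheet B, bars for mean ± SD, and axes from 0. Mx1, Ifitm3 and Oas1a have 5, 4 and 5 treated rats above every control, Mx2 has 5 below every control, and Ifit3 is high in squares of both groups.

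Enzymes that attach or remove ISG15, ubiquitin and ADP-ribose were higher in treated rats in 6 of 6 tested, with a median log2 fold change of 0.35, and none passed an unadjusted p of 0.05 with 12 rats. Parp9 is an ADP-ribosyltransferase that works with the ubiquitin ligase Dtx3l, and the 2 genes lie side by side on chromosome 11, with Parp14, a further ADP-ribosyltransferase, close by. Parp9 was counted at 12.7 (rat 1), 8.58 (rat 4), 13.0 (rat 5), 13.7 (rat 7) and 10.6 CPM (rat 9) in controls and at 19.2 (rat 12), 21.1 (rat 17), 15.2 (rat 19), 11.4 (rat 20), 13.6 (rat 32) and 14.0 CPM (rat 35) in treated rats. The treated rats of sheet B and rat 35 were above all controls, and rats 20 and 32 were among them. Its log2 fold change was 0.38 with an SE of 0.21 (unadjusted edgeR p of 0.0831), and 0.42 with an SE of 0.19 (p of 0.0436) without rat 6, where the adjusted p was 1.0. The exact permutation p was 0.591 with rat 6, which had 2 counts of Parp9, 0.0606 without it and 0.045 within sheets without it, and the difference was 0.08 in sheet A and 0.79 in sheet B. Parp14 followed at 0.34 (SE 0.24) and Dtx3l at 0.15 (SE 0.18).

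Usp18, the protease that takes ISG15 off proteins and also dampens the interferon receptor, was the third highest of the 29. It was counted at 1.87 (rat 1), 1.70 (rat 4), 3.04 (rat 5), 1.02 (rat 7) and 0.670 CPM (rat 9) in controls and at 3.18 (rat 12), 3.55 (rat 17), 2.825 (rat 19), 1.72 (rat 20), 1.91 (rat 32) and 2.15 CPM (rat 35) in treated rats. Only 2 treated rats exceeded every control, since rat 5 was high among the controls. The log2 fold change was 0.63 with an SE of 0.33 (unadjusted edgeR p of 0.0796), and without rat 5 it was 0.92, with an unadjusted p under 0.05. The difference was 0.75 in sheet A and 0.46 in sheet B. Isg15 itself was low, at 0.399 to 1.16 CPM in controls and 0.706 to 1.45 CPM in treated rats, and had a log2 fold change of 0.22 (SE 0.31). Trim25, the ubiquitin and ISG15 ligase that activates RIG-I, had 0.35 (SE 0.40), with -0.32 in sheet A and 0.59 in sheet B.

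Sensors of foreign RNA and the RNA editor were higher in 3 of 4 tested, with a median of 0.16. Dhx58, a helicase that regulates RNA sensing, had a log2 fold change of 0.32 (SE 0.20; 0.09 in sheet A and 0.48 in sheet B), the kinase Eif2ak2, which stops translation on meeting double-stranded RNA, 0.21 (SE 0.15), and Ifih1, the sensor MDA5, 0.11 (SE 0.18). Adar had 186 to 236 CPM in controls and 175 to 219 CPM in treated rats, with a log2 fold change of -0.02 (SE 0.13) that was above 0 in 4 of 22 settings. None of the 4 passed the unadjusted threshold in edgeR.

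The transcription factors and the receptor had fold changes nearer to 0, and whether they differ in this from the other roles was not tested. Of the 5 factors 2 were higher, with a median of -0.03, and the receptor chain Ifnar1 had a log2 fold change of 0.06 (SE 0.11). Stat2, the STAT of the ISRE complex, was counted at 46.9 (rat 1), 41.5 (rat 4), 39.3 (rat 5), 47.9 (rat 7) and 49.7 CPM (rat 9) in controls and at 32.3 (rat 12), 33.1 (rat 17), 35.3 (rat 19), 43.1 (rat 20), 48.0 (rat 32) and 43.6 CPM (rat 35) in treated rats. The 3 treated rats of sheet B were below every control, and those of sheet A were among them. Its log2 fold change was -0.18 with an SE of 0.15 (unadjusted edgeR p of 0.24), and with the sheet as a covariate and rat 6 left out it was -0.17 with an SE of 0.07 (unadjusted p of 0.0261). The difference was -0.10 in sheet A and -0.27 in sheet B. Irf1, a factor induced mainly by interferon gamma, was counted at 12.1 (rat 1), 11.97 (rat 4), 10.6 (rat 5), 12.7 (rat 7) and 8.96 CPM (rat 9) in controls and at 10.8 (rat 12), 9.12 (rat 17), 8.55 (rat 19), 12.9 (rat 20), 12.9 (rat 32) and 12.7 CPM (rat 35) in treated rats. The groups overlapped throughout, with a log2 fold change of -0.07 that came to -0.01 without rat 6, and a difference of 0.21 in sheet A and -0.25 in sheet B. Irf3, which starts interferon production, had -0.03 (SE 0.21), and 34 of its exonic bases (2.35%) are shared with Bcl2l12 on the opposite strand, the only overlap among the members. Irf9, the DNA-binding part of the ISRE complex, had 0.18 (SE 0.18).

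Irf7, the factor that amplifies interferon production and is itself induced by interferon, was the transcription factor with the highest fold change. It was counted at 3.72 (rat 1), 1.896 (rat 4), 2.096 (rat 5), 2.254 (rat 7) and 3.01 CPM (rat 9) in controls and at 2.59 (rat 12), 3.65 (rat 17), 3.69 (rat 19), 4.203 (rat 20), 3.165 (rat 32) and 4.44 CPM (rat 35) in treated rats. All 6 treated rats were above the control median, and 2 were above every control. The difference was 0.39 in sheet A and 0.68 in sheet B. The log2 fold change was 0.47 with an SE of 0.22 (unadjusted edgeR p of 0.0551), and with the sheet as a covariate and rat 6 left out 0.50 with an SE of 0.18 (unadjusted p of 0.0174). The exact permutation p was 0.0238, 0.0411 without rat 6 and 0.03 within sheets without rat 6. Rat 6 had 0 counts of Irf7, and the difference in mean log2 CPM was 1.23 with that rat and 0.49 without it.

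The 6 members below the filter had few counts, and between 3 (Ifit1) and 10 (Isg20) of 11 rats had at least 3 of them. Ifit1, an RNA-binding effector, was the most uneven: 56 counts in control rat 1, 30 in treated rat 32, 16 in control rat 4, 1 in control rat 5 and 0 in the other 8 rats. Cxcl10, a chemokine that draws T cells, reached 21 counts in control rat 1 and had 0 in 4 rats. Oas2 and Oasl had at most 7 and 13 counts, Zbp1, a sensor of left-handed nucleic acid, at most 10, and Isg20, an RNA exonuclease, at most 26. DESeq2 tested these 6 as well and gave log2 fold changes from -1.63 (Ifit1) to 0.58 (Oasl), with SEs from 0.57 to 2.35 and unadjusted p from 0.488 to 0.874.

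Whether the members moved together with Mx1 was then asked in a way that does not use the difference between the groups. For 11 rats, log2 CPM was centred on the mean of each treatment within each sheet, and each gene was correlated with Mx1 over the rats. The controls of sheet B were only rats 4 and 5, so centring made their values mirror each other. Their Mx1 deviations, 0.52 and -0.52, were the largest of the 11 rats and weigh heavily in every r. Of the 29 members 13 had a positive r, where 51.4% of all genes had one, and the median r was -0.09 (0.02 over all genes). Without rats 5 and 32, the 2 with Mx1 farthest from its median, the median r of the members was 0.16 (0.05 over all genes). The remaining rats were centred anew for this. Rat 4, then the only control of sheet B, thus carried no weight, and rats 20 and 35 mirrored each other. A permutation p under 0.05 was reached by 2 of 29, Trim25 and Ifit3, and by 7.55% of all genes. Trim25 had the highest r, 0.73 (Spearman's rho 0.83, exact permutation p over 432 rearrangements 0.0301 and 0.0162, adjusted over all genes 0.613 for r). Without rats 5 and 32 its r was 0.59. Its counts were 5.37 (rat 1), 7.88 (rat 4), 5.45 (rat 5), 4.67 (rat 7) and 2.76 CPM (rat 9) in controls and 9.43 (rat 12), 8.92 (rat 17), 11.7 (rat 19), 2.98 (rat 20), 4.23 (rat 32) and 2.75 CPM (rat 35) in treated rats. As the sheets differ in Trim25 by 1.12 on the log2 scale, this r describes the order of the rats within each group of a sheet, which has at most 3 rats. With centring on treatment alone, the r of Trim25 was -0.14.

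After Trim25 came Ifitm3 with r = 0.53 (rho 0.52, exact permutation p = 0.0926 and 0.141), Ifi44 with r = 0.50 (rho 0.53, p = 0.171 and 0.169) and Irf1 with r = 0.49 (rho 0.55, p = 0.113 and 0.0995). Without rats 5 and 32 they had r of 0.76, 0.59 and 0.58. With centring on treatment alone their r were 0.07, 0.66 and 0.40. Ifi44, a cytoplasmic protein of the interferon response, was counted at 7.63 (rat 1), 4.69 (rat 4), 3.88 (rat 5), 9.12 (rat 7) and 6.11 CPM (rat 9) in controls and at 5.54 (rat 12), 4.66 (rat 17), 4.94 (rat 19), 8.135 (rat 20), 8.89 (rat 32) and 10.4 CPM (rat 35) in treated rats. In both groups it was lower in sheet B, and the treated rats were higher by 0.27 in sheet A and 0.23 in sheet B. At the other end Ifit3 had r = -0.87 (rho -0.84, exact permutation p = 0.0347 and 0.044, adjusted 0.613 for r), and without rats 5 and 32 r = -0.63. With centring on treatment alone its r was -0.74. Gbp2 (-0.75), Eif2ak2 (-0.74) and Dhx58 (-0.68) followed with a permutation p above 0.05. Mx2 had r = 0.30 (exact permutation p = 0.403).

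**Figure D4:**
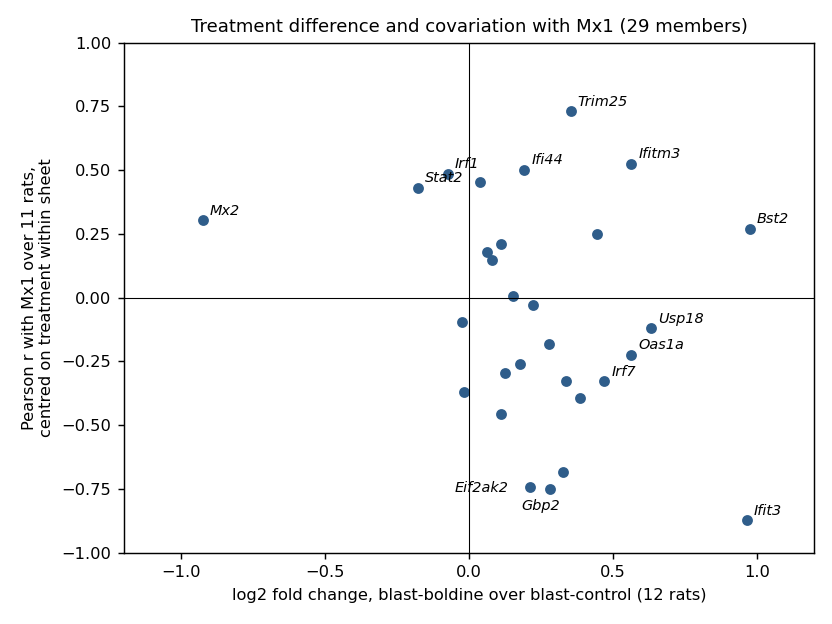
Each point is 1 of 29 members: log2 fold change of blast-boldine over blast-control rats (horizontal axis) and Pearson r with Mx1 over 11 rats after centring on treatment within sheet (vertical axis). Points right of 0 are spread above and below r = 0, from Trim25 at 0.73 to Ifit3 at -0.87, and 13 of 29 lie above it.

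Single rats were compared by their CPM within each treatment, without centring on the sheet. Control rat 5 had the lowest Mx1 of the controls, and of the 29 members it was the highest control in 11 and the lowest in 6. Treated rat 17 had the lowest Mx1 of the treated rats and was the highest of them in 11 and the lowest in 4. Treated rat 32, with the highest Mx1, was the highest of its group in 3 members and the lowest in 5. Rats 5 and 17 both belong to sheet B, so these counts include any difference between the sheets. Among all 435 pairs of the 30 members, 255 had a positive r after centring on treatment within sheet, the median was 0.10, and 80 were above 0.5. Among these pairs were Gbp2 with Eif2ak2 at 0.92, Parp9 with Parp14 at 0.88 and Ifit2 with Ifit3 at 0.57, whereas Rsad2 with Cmpk2, neighbours on chromosome 6, had -0.35 and Ifitm3 with Oas1a -0.53. These r share 11 libraries and are given as a description. Shares over pairs of all genes were not computed. Against Mx1 alone, r was above 0 for 51.4% of all genes and above 0.5 for 21.3%. Of the whole table, the 5 genes with the highest r with Mx1 were Dcc (0.98), Fam168b (0.97), LOC501038 (0.97), Glis2 (0.96) and Tmem248 (0.96), and no gene had an adjusted permutation p under 0.5. With centring on treatment alone, the r of these 5 genes were 0.03, 0.86, 0.07, 0.91 and 0.79 in turn.

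**Figure D5:**
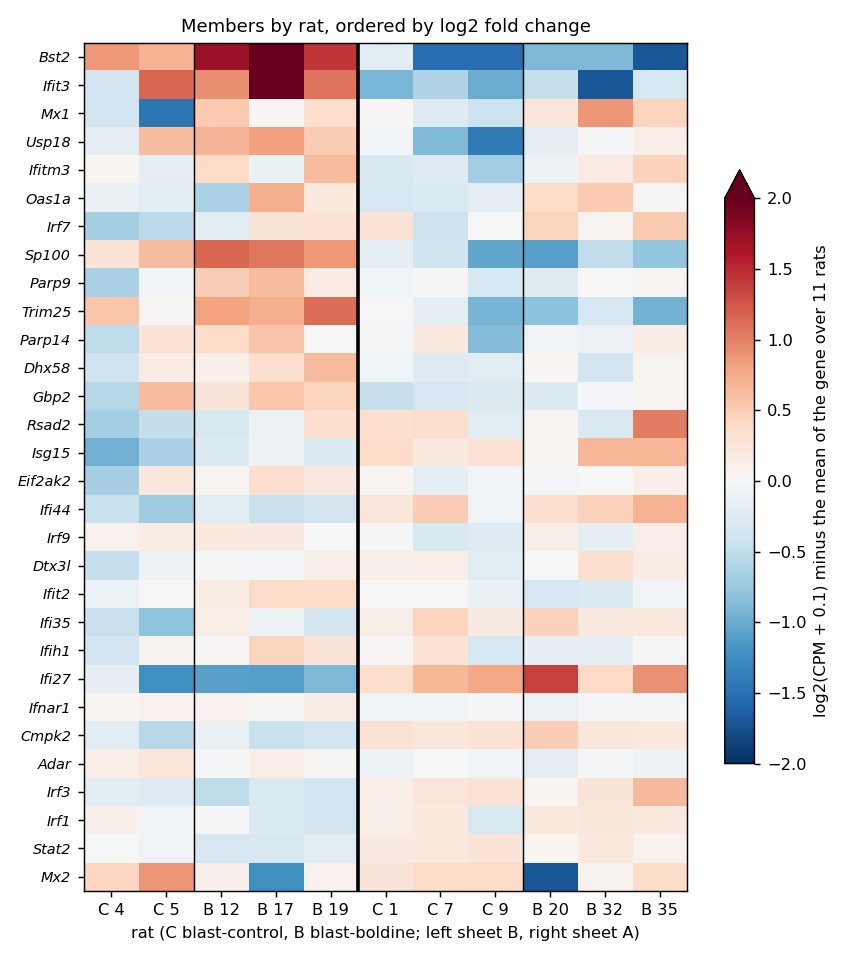
Log2(CPM + 0.1) of Mx1 and the 29 other members in 11 rats, each gene minus its own mean over the rats, ordered by log2 fold change, with rats of sheet B left of the thick line and sheet A right of it (C blast-control, B blast-boldine). Colours stop at ±2. Bst2, Ifit3, Sp100 and Trim25 are high in sheet B and Ifi27 in sheet A, and rats 5 and 17 are high for several members but not for Mx1.

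Within the sheets, 21 of 29 members were higher in treated rats in sheet A (3 against 3 rats, median difference 0.09, 50.3% of all genes higher) and 23 of 29 in sheet B (3 against 2 rats, median 0.39, 51.6% of all genes). In both sheets 18 members were higher, as were 27.0% of all genes, and 3 were lower. With the sheet as a covariate, 5 of 29 had an unadjusted edgeR p under 0.05 (3.85% of all genes), Ifitm3, Irf7, Oas1a and Usp18, which were higher, and Mx2, which was lower. With rat 6 left out as well, 25 of 29 were higher (47.4% of all genes) and 5 had an unadjusted edgeR p under 0.05 (5.35% of all genes), namely Ifitm3, Irf7 and Parp9, which were higher, and Mx2 and Stat2, which were lower. Among the members the smallest adjusted p was 0.898. DESeq2 with the same covariate and without rat 6 gave 4 of 34 (4.69% of all genes), with a smallest adjusted p of 0.624.

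The ISRE matches printed and counted above were set beside these values. The 13 tested members other than Mx1 with a match were higher in treated rats in 13 of 13, with a median log2 fold change of 0.28, and those with a window but no match in 7 of 10, with a median of 0.09. Neither count holds the tested members without a window, namely Mx2 (-0.93), Adar (-0.02), Ifit2 (0.12), Isg15 (0.22), Dhx58 (0.32) and Usp18 (0.63). Among tested genes that are no members, 55.4% of 269 with a match and 51% of 9445 without one were higher. A positive r with Mx1 was found in 5 of the 13 members with a match and in 7 of the 10 without. The list holds genes known to be induced through this motif, so its share of matches is a property of the list, and the counts are a description.

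Genes of the pathway outside the list were looked at in the same way. Of 10 interferon genes 6 had a row, none passed the filter and none exceeded 8 counts in any rat. Of 15 tested receptors, kinases, STATs and inhibitors 8 were higher in treated rats, and of 8 tested sensors and adaptors 5. Of 30 other interferon-stimulated genes tested 23 were higher and 7 lower (51.3% of all genes were higher), with a median log2 fold change of 0.17. Of these 30, 1 passed an unadjusted p of 0.05 (1.07% of all genes did), Rtp4, a chaperone of membrane receptors, at 0.58 (SE 0.26, unadjusted edgeR p of 0.0416, and 0.0514 without rat 6).

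Markers of other cell types were higher in treated rats for some types and lower for others. Endothelial markers were higher in 8 of 9 tested, with a median log2 fold change of 0.23, and their summed level ran from 135 to 412 CPM in treated rats and from 130 to 387 CPM in controls, where the sheets took 130 to 196 (A) and 304 to 412 CPM (B). Markers of the meninges were higher in 9 of 10 (median 0.59; summed level 88.8 to 366 CPM in treated rats and 64.0 to 292 CPM in controls), with Col3a1 at 0.94 (SE 0.40, unadjusted edgeR p of 0.0335) and Slc6a13 at 0.98 (SE 0.35, p of 0.0155), of the choroid plexus in 7 of 8 (median 0.33; 9.81 to 1312 CPM and 14.99 to 1300.1 CPM), and of ependymal cilia in 7 of 7 (median 0.34; 35.9 to 73.2 CPM and 32.7 to 67.9 CPM), with Ccdc153 at 1.02 (SE 0.29, p of 0.00362). Microglial markers were higher in 2 of 13 (median -0.10; 256 to 582 CPM and 241 to 566 CPM). Neuronal markers were higher in 2 of 8 and astrocyte markers in 1 of 7. Oligodendrocyte markers were higher in 3 of 6 and blood cell markers in 2 of 5. All these counts include rat 6, and some depended on it. Without rat 6, neuronal markers were higher in 5 of 8, with a median of 0.03 against -0.08 with that rat. Astrocyte markers were then higher in 0 of 7, oligodendrocyte markers in 0 of 6 and blood cell markers in 1 of 5. Choroid plexus markers were then higher in 6 of 8, and the counts of the other types did not change. Over 11 rats and with the same centring, the median r with Mx1 was 0.50 for microglial markers, 0.37 for blood cells, 0.34 for the choroid plexus, 0.30 for astrocytes, 0.26 for the meninges, 0.22 for ependymal cilia, 0.13 for neurons, 0.0013 for oligodendrocytes and -0.12 for endothelial cells. Their part in the values of the members was not tested.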

How the data were processed

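Hippocampal RNA of 12 blast-exposed rats, 1 library each, was sequenced, and the deposited values are raw counts per gene. The authors cleaned reads and dropped PCR duplicates in HTStream, then aligned them with STAR 2.7.11b to mRatBN7.2, and counted reverse-stranded reads on RefSeq exons by gene name with featureCounts (Subread 2.0.1). Reads with several alignments are not counted by its default, and no other setting is stated. An exon length column deposited beside the counts (another unit, bases) gave levels per kilobase.

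Counts were compared here by edgeR 4.0.16 (R 4.3.3) and its quasi-likelihood test (TMM, filterByExpr with a minimum of 10 counts, treatment as the only term, two-sided, Benjamini-Hochberg adjustment over all genes at 0.05), checked on simulated counts. The simulated counts had a lower dispersion than the data (common dispersion 0.104 with 12 rats) and no sheet difference, so they check the procedure and not its error rate here. The SE is the log2 fold change over the root of F. CPM use TMM factors, and log2 CPM a prior count of 2. Exact permutation tests enumerated assignments of rats. Alternatives were DESeq2 1.42.0, limma 3.58.1, other scalings and filters, the inferred sheet as a covariate, and leaving out each rat. Groups came from the sample labels, and rat numbers pair no samples. Members and lists were chosen with earlier results of these data known. Values in every rat are given for Mx1, Mx2, members with an unadjusted edgeR p under 0.05, the 3 highest and 3 lowest fold changes and the 4 highest r with Mx1, and for Irf7, chosen after its values were seen; other members by ranges or fold changes. Outside the list, genes are named from fixed pathway and marker lists where they passed an unadjusted p of 0.05, or for the 5 highest r. Each rat is 1 replicate.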

Additional observations from a re-analysis of the deposited data

Results flagged for a closer look

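In 6 of 72 groups of members and treatment without rat 6, the highest rat lay farther from its group than Dixon's 95% limit. That limit is set for normally distributed values, and these groups share the same 11 rats and include very low counts. How many groups would pass it by chance is therefore not given here. Control rat 5 stood apart in 3 of the 6 groups: Mx2 at 48.0 CPM (next highest control 35.3), Ifit3 at 3.67 CPM (next 1.197) and Gbp2 at 10.8 CPM (next 5.69). Treated rat 35 stood apart in Rsad2 at 7.04 CPM (next 4.32). The other 2 were members below the filter, Ifit1 in treated rat 32 at 1.40 CPM (30 counts, 0 in the other treated rats) and Zbp1 in treated rat 19 at 0.471 CPM (6 counts). Rat 5 had also the lowest Mx1 of the controls.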

How the results depend on the processing

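The number of the 29 tested members with an unadjusted p under 0.05, 2 as reported, was 1 with RLE size factors and with upper quartile factors, 5 with the sheet as a covariate (also with rat 6 left out), and 4 of 34 with DESeq2, the sheet as a covariate and rat 6 left out; leaving out single rats gave 1 to 4, with 4 without control rat 5 (Ifitm3, Ifit3, Usp18 and Gbp2). The share of all genes under that threshold moved too: 1.07% as reported, 1.4% without rat 6 and 3.85% with the sheet as a covariate. It was 5.35% with rat 6 left out as well, and 4.69% in the DESeq2 fit with the sheet. For the other alternatives the share over all genes is not given here, so their counts cannot be set against the whole table. The cause of these shifts was not tested. No alternative gave an adjusted p under 0.05 for any of them. The number higher in treated rats ran from 22 to 25 of 29 when single rats were left out, and the median log2 fold change from 0.11 (without control rat 4) to 0.26 (without control rat 1). The median r with Mx1 was -0.18 with centring on treatment alone and 0.16 without rats 5 and 32. No paired analysis was possible because the groups share no rat numbers. Depth limits the precision of the 6 members below the filter and, in rat 6, of nearly all.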
